A study of Mus musculus with 24 samples.

Results

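The genes described here are the collagen chains of the postnatal mouse lung, 39 genes of the 23420 in each table. They were taken by name, as every gene called Col, a type number, the letter a and a chain number, and 5 chains of cartilage (*Col2a1*, *Col9a1*, *Col9a2*, *Col9a3* and *Col11a2*) were left out. The 39 fall into 9 fibrillar chains, 8 basement membrane chains and 22 other chains by the type of collagen they encode. Bulk RNA of the left lung lobe was sequenced from 24 mice, with 3 mutants and 3 controls of their own for *Vangl2* and for *Ror2* at postnatal day 2 (P2) and day 5 (P5). The mutants were homozygous for a floxed allele of *Vangl2* or of *Ror2* and carried Cre at 1 copy of the Sox9 locus (Sox9Cre/+; Vangl2f/f and Sox9Cre/+; Ror2f/f). The controls are labelled WT, and the titles of those set beside the *Vangl2* mutants name Vangl1/2. *Vangl2* encodes a membrane protein and *Ror2* a receptor of planar cell polarity, which orients cells within a tissue. In the lung this Cre acts in the distal epithelium, and it is also active in other organs. A lobe mixes epithelium with fibroblasts, vessels and blood, so fewer cells of a type and less RNA in each cell cannot be told apart.

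A collagen is built of chains wound into a triple helix. Fibrillar collagens assemble into the fibres that bear tension in septa, vessels and airways, and come mainly from fibroblasts. Type IV collagen instead forms a sheet-like network under epithelium and endothelium, made in most tissues from the chains of *Col4a1* and *Col4a2* and, in the alveolar wall, also from those of *Col4a3*, *Col4a4* and *Col4a5*. The septa that divide the airspace grow in the first postnatal weeks.

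Some facts about the lungs bear on every value. Values are normalized counts, the reads on a gene divided by a size factor for the lung, and each table was scaled on its own, so groups were compared within a table. Reads on genes numbered 16178031 to 21546673 in 23 lungs and 13823693 in control 1 of the P5 *Ror2* table. That control had no reads on expressed genes of chromosomes 6 to 9 and X and on most of chromosome 5, so its values there were treated as missing, and for 13 chains the P5 *Ror2* comparison rests on 2 controls. Groups follow the titles, although the genotype entry of the P5 *Vangl2* mutants and of the P2 *Ror2* mutants names the other gene. *Vangl2* was at 241, 224 and 173 against 249, 302 and 281 normalized counts in the P2 *Vangl2* mutants and controls, and at 169.5, 148 and 166 against 369, 314 and 292 at P5, so at both ages the mutants lay under all controls. *Ror2* was at 479, 349 and 366 against 451, 581 and 519.8 in the P2 *Ror2* mutants and controls and at 362, 439.7 and 521 against 526, 368 and 597 at P5, so the groups overlapped and the gene does not check the labels of those lungs. By *Xist*, 1 of 3 P2 *Vangl2* controls and 2 of 3 mutants were female, 1 of 3 in each P2 *Ror2* group, 3 of 3 P5 *Vangl2* controls and 2 of 3 mutants, and, among the P5 *Ror2* lungs, 1 of the 2 controls that could be read and none of the mutants. The sum of 7 alveolar type II markers was at least 175314 normalized counts in every lung in which all 7 have a value, as for lung tissue. The labels do not say that lungs of a group came from separate litters, so p-values measure the spread between these lungs.

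In the control lungs the chains spanned levels from near 0 to those of abundant messages. Per kilobase of exon, *Col4a1* was highest in all 4 tables, at 8719.6 to 11513 normalized counts per kb. Next by their median over the tables came *Col4a2* (4697 to 7497), *Col3a1* (5179 to 6685), *Col1a1* (4087 to 5987), *Col6a1* (3299 to 3720.3) and *Col1a2* (2698 to 3477), and the ranges of neighbours from *Col4a2* to *Col1a1* and of *Col6a1* and *Col1a2* overlap. The length is the union of all annotated exons, 12426 bases for *Col1a2* and 6563 for *Col1a1*, so this order depends on the annotation. Before division by length, the mean ratio of *Col1a1* to *Col1a2* counts was 0.971 in the P2 *Vangl2* controls and 0.798 in the P2 *Ror2* controls. The chains of the alveolar network were lower, with *Col4a3* at 679.9 to 791, *Col4a5* at 412 to 477 and *Col4a4* at 311 to 478 normalized counts per kb. *Col4a6*, a minor type IV chain, was at 45.9 to 63.9. At the other end, *Col10a1*, a chain of growth plate cartilage, was at 3.66 to 5.32 and *Col19a1* at 0.0451 to 0.179. The 39 chains together took 1.67%, 1.78% and 1.70% of all normalized counts in the P2 *Vangl2* controls and 2.13%, 1.97% and 2.15% in the P5 *Vangl2* controls.

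**Figure D1:**
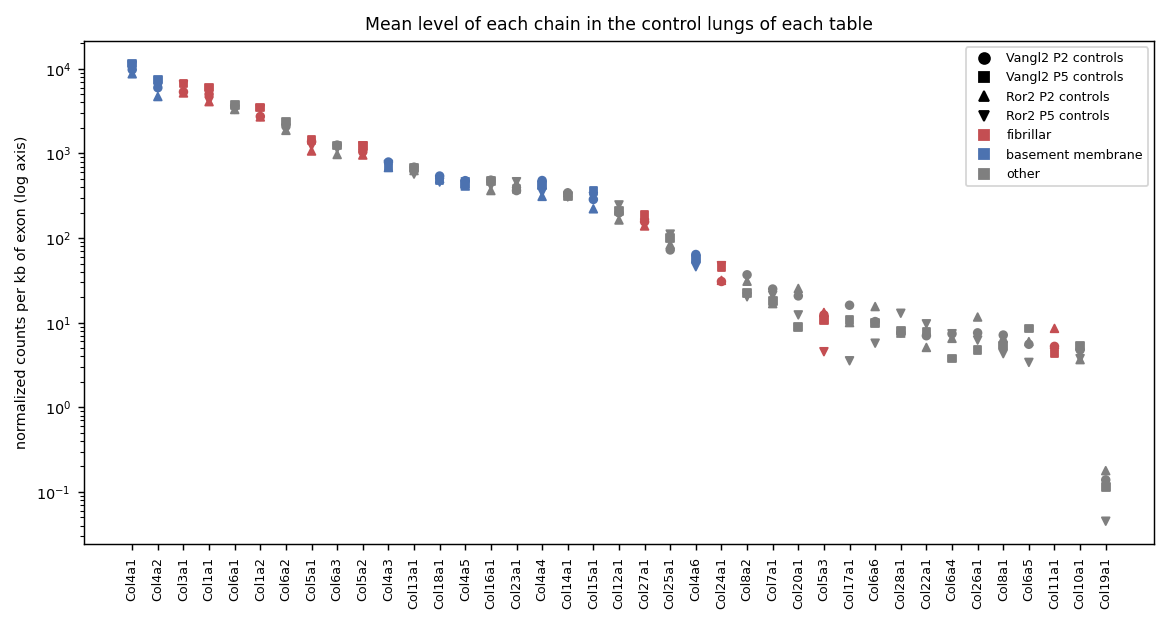
Mean level of each of the 39 chains in the control lungs of each of the 4 tables, in normalized counts per kb of exon on a log axis, ordered by the median of the tables, with a colour for each class and a symbol for each table. *Col4a1* lies at the left at 8719.6 to 11513 and *Col19a1* at the far right at 0.0451 to 0.179.

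In the P2 *Vangl2* mutants *Col1a1*, *Col6a3* and *Col16a1* were lower and *Col4a3* was higher, and these 4 of the 38 chains tested were the only ones to pass at a Benjamini-Hochberg adjusted p under 0.05 (limma on log2 of the normalized count + 1). Of all 17448 genes tested there, 3.59% passed, 2.09% lower and 1.5% higher. On the reads recovered from that table, edgeR called 5 chains (3.67% of all genes) and DESeq2 14 (11.5% of all genes). At P5 the *Vangl2* mutants had 0 of 39 chains past it in limma, where 0.563% of genes did. In the P2 *Ror2* mutants 0 of 38 passed in limma, where 0.0% of genes did, with 0 chains by edgeR, which called 0 genes, and 2 by DESeq2 (*Col4a5* and *Col6a6*), which called 4.58% of genes. At P5 the *Ror2* mutants had 0 of 38 past it in limma, where 0.18% of genes did, and no count test was run on the P5 tables. Before adjustment, chains under 0.05 in limma numbered 18 of 38 and 11 of 39 in the *Vangl2* mutants at P2 and P5 (47.4% and 28.2%, beside 22.5% and 18.8% of all genes). In the *Ror2* mutants they numbered 12 of 38 and 11 of 38 (31.6% and 28.9%, beside 19.3% and 18.5%).

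The same can be counted by lung. At P2 all *Vangl2* mutants were below all controls for 13 of 38 chains (34.2%, beside 14.9% of all genes) and above them for 7 (18.4%, beside 14.6%). At P5 they were below for 11 of 39 (28.2%, beside 12.5%) and above for 1 (2.56%, beside 13.2%). The *Ror2* mutants were below for 8 of 38 at P2 (21.1%, beside 12.2%) and above for 4 (10.5%, beside 13.4%). At P5 they were below for 11 of 38 (28.9%, beside 14.4%) and above for 3 (7.89%, beside 15.6%). The median log2 fold change of the chains was -0.07 and -0.42 in the *Vangl2* mutants at P2 and P5 and -0.07 and -0.26 in the *Ror2* mutants, beside -0.01 to 0.00 for all genes. Of the 38 chains tested in all 4 comparisons, 17 had fold changes below 0 in each of them, 5 had fold changes above 0 in each (*Col8a1*, *Col8a2*, *Col13a1*, *Col17a1* and *Col20a1*), and 16 were mixed. The share of all genes that kept 1 sign in all 4 was not counted. Between the mutants at 1 age, 70.7% (P2) and 71.9% (P5) of all genes had the same sign.

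**Figure D2:**
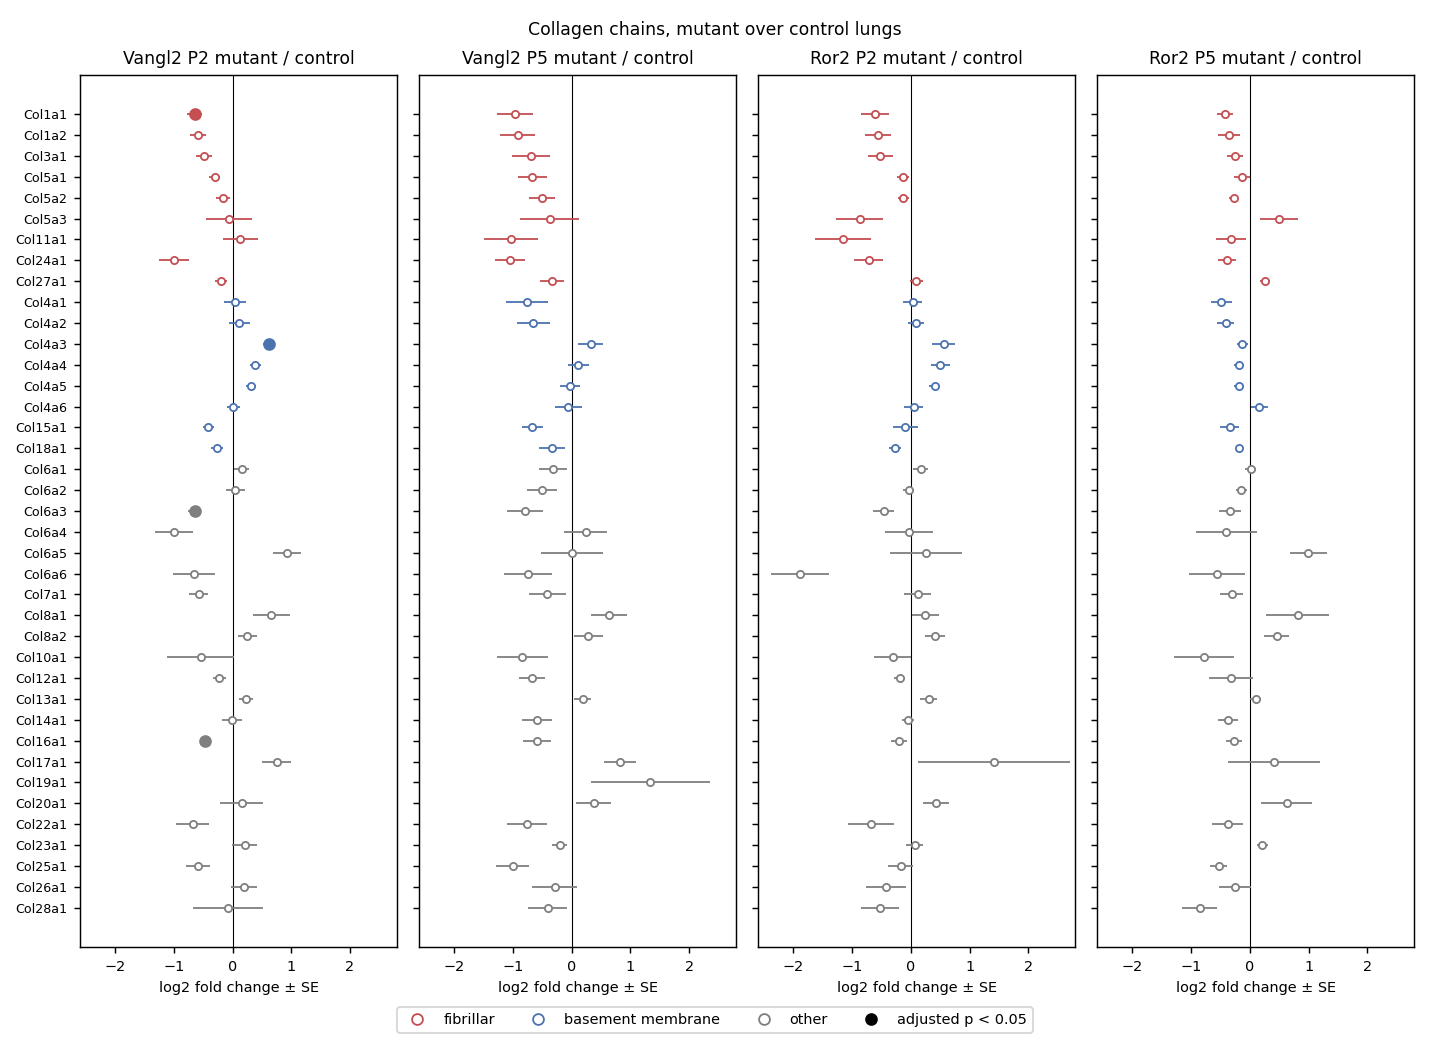
Log2 fold change, mutant over control, with its standard error (limma, 3 lungs per group, 2 controls for 13 chains in the P5 *Ror2* panel) for each chain tested in the 4 comparisons, coloured by class. Filled points passed an adjusted p under 0.05, which 4 chains did in the P2 *Vangl2* panel and 0 in the others, and *Col19a1* was tested only in the P5 *Vangl2* table.

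Of the classes, the fibrillar chains had the largest share of fold changes below 0 in all comparisons but the P5 *Ror2* one, where it was 7 of 8 for the basement membrane chains. Fold changes were below 0 for 8 of 9 in the P2 *Vangl2* mutants, 9 of 9 at P5, 8 of 9 in the P2 *Ror2* mutants and 7 of 9 at P5, with medians of -0.31, -0.69, -0.56 and -0.28 on the log2 scale. Over all genes tested the shares below 0 were 49.9%, 49.7%, 50.6% and 49.4%. *Col1a1* and *Col1a2* encode the chains of type I collagen, the main fibrous protein of connective tissue. *Col1a1* was at 19969, 19777 and 23386 normalized counts in the P2 *Vangl2* mutants against 30992, 35557 and 31906 in their controls. All mutant lungs lay below all control lungs, with a log2 fold change of -0.64 ± 0.13 (standard error, SE, over 3 lungs a group, limma with Benjamini-Hochberg adjustment, adjusted p = 0.0394). This call was lost without any 1 of the controls (log2 fold change -0.68, -0.58 and -0.66) and without mutant 1 or mutant 2 (-0.61 and -0.60). It was also lost with sex as a term, a pseudocount of 8 or the replicate number as a block (limma adjusted p = 0.0626, 0.0516 and 0.0519). Over all alternatives its limma, edgeR or DESeq2 adjusted p ran from 1.53e-05 to 0.210.

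In the other comparisons *Col1a1* was also below the controls in every mutant lung but did not pass. At P5 it was at 27114, 22410.1 and 13193 in the *Vangl2* mutants against 43749.5, 34091 and 40043, a log2 fold change of -0.97 ± 0.30 (SE, limma adjusted p = 0.156). It was at 19239.6, 22972 and 12026 in the P2 *Ror2* mutants against 26641, 30511 and 23318, a log2 fold change of -0.61 ± 0.24 (SE, limma adjusted p = 0.238). At P5 it was at 17490.3, 19972 and 24279 in the *Ror2* mutants against 24555, 27894 and 30025, a log2 fold change of -0.43 ± 0.14 (SE, limma adjusted p = 0.186). The mutants were the more spread group in each of these. In the P5 *Vangl2* table mutant 3 was the lowest lung for *Col1a1*, *Col1a2* and *Col3a1* alike, and without it the log2 fold change of *Col1a1* was -0.67. In the P2 *Ror2* table mutant 3 was the lowest lung for *Col1a1*, and without it the log2 fold change was -0.34.

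*Col1a2* went with its partner. It was at 21505, 21190.3 and 25008 in the P2 *Vangl2* mutants against 29588, 36138 and 36236 (log2 fold change -0.59, limma adjusted p = 0.0595), without overlap. Its log2 fold change was -0.92 in the P5 *Vangl2* mutants, -0.56 in the P2 *Ror2* mutants and -0.36 at P5, where 2 controls have a value. The ratio of *Col1a1* to *Col1a2* counts within a lung, which does not depend on the size factor, overlapped between the groups in every comparison. Its mean was 0.932 in mutants and 0.971 in controls of the P2 *Vangl2* table, and 0.771 and 0.798 in the P2 *Ror2* table.

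*Col3a1* encodes the chain of type III collagen, which forms thin fibres with type I in distensible tissue. It was at 38761, 33932 and 38733 in the P2 *Vangl2* mutants against 53055, 55759 and 48227 (log2 fold change -0.50, limma adjusted p = 0.0892), and at 52906, 42915 and 28744 against 63402, 56731 and 76739.7 at P5 (log2 fold change -0.69, limma adjusted p = 0.292). The groups did not overlap at either age. In the *Ror2* mutants its log2 fold change was -0.52 at P2, without overlap, and -0.25 at P5, where mutant 3 lay above the lowest control.

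*Col5a1* and *Col5a2* encode chains of type V collagen, which regulates the diameter of type I fibrils. *Col5a1* had log2 fold changes of -0.31 and -0.67 in the *Vangl2* mutants at P2 and P5 and of -0.13 and -0.13 in the *Ror2* mutants. *Col5a2* had -0.16 and -0.51 in the *Vangl2* mutants and -0.13 and -0.28 in the *Ror2* mutants. *Col24a1*, a fibrillar chain of low abundance here, was at 81.7, 127 and 149 normalized counts in the P2 *Vangl2* mutants against 194, 259 and 249 (log2 fold change -1.0, standard error 0.25, limma adjusted p = 0.0739). At P5 it was at 215, 180.2 and 116 against 289, 401 and 348 (log2 fold change -1.05, standard error 0.26, limma adjusted p = 0.109). In the *Ror2* mutants it was at 147, 204 and 104 against 256, 245 and 222 at P2 and at 219, 293 and 323 against 341, 371 and 368 at P5, with log2 fold changes of -0.72 and -0.39. Its mutants were thus below its controls in all 4 comparisons, as for *Col1a1*.

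*Col27a1*, *Col11a1* and *Col5a3* did not keep 1 direction. *Col27a1*, a fibrillar chain best known from cartilage, had log2 fold changes of -0.20 and -0.33 in the *Vangl2* mutants and of 0.09 and 0.26 in the *Ror2* mutants. At P5 the *Ror2* mutants had it at 2370.1, 2496 and 2183 against 1824, 1956 and 2114, all above the controls (limma adjusted p = 0.175). *Col11a1*, another chain of cartilage fibrils, at 13.4 to 120.2 normalized counts over all lungs, had log2 fold changes of 0.13 and -1.04 in the *Vangl2* mutants and of -1.16 and -0.32 in the *Ror2* mutants. *Col5a3*, a type V chain at 28.0 to 142 normalized counts, had -0.06 and -0.38 in the *Vangl2* mutants, and -0.87 and 0.49 in the *Ror2* mutants, the last over 2 controls.

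**Figure D3:**
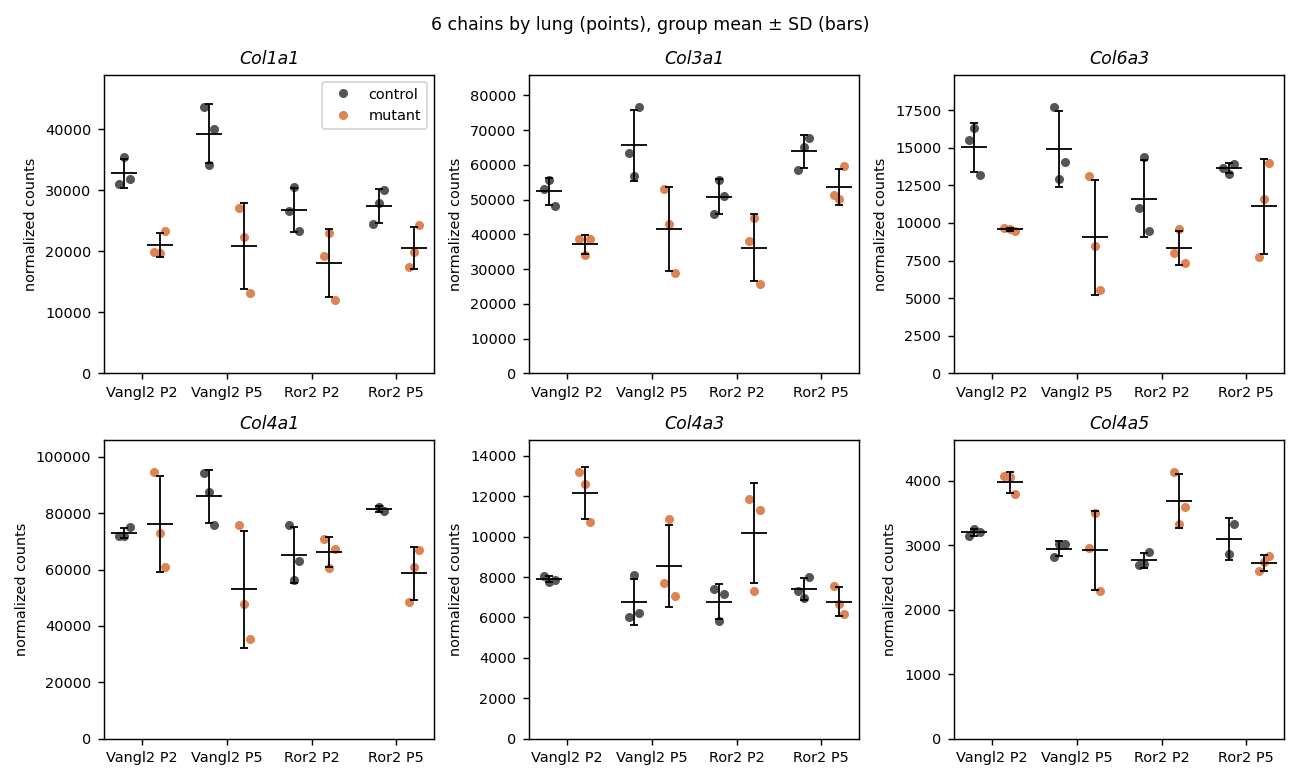
Normalized counts of 6 chains in every lung with a value (points, controls grey and mutants orange) with the mean and SD of each group (bars), for the 4 comparisons. *Col1a1* is lower in all 3 mutants of each comparison, *Col4a3* higher in all 3 P2 *Vangl2* mutants, and *Col4a1* lower in the P5 *Ror2* mutants, where 2 controls have a value.

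The type IV genes lie in pairs that start back to back on opposite strands, so a pair shares the sequence from which both genes are read. The starts of the pairs compared next are shown here from RefSeq windows on GRCm38.p6. The start of the coding *Col4a3* transcript and the exons come from a separate gene annotation of the same build. *Col4a1* (minus strand) and *Col4a2* (plus strand) overlap by 22 bases at their starts, at chr8:11312805-11312826. Between the start of *Col4a4* (minus strand) and the first coding transcript of *Col4a3* (plus strand) lie 126 bases, at chr1:82586850-82586975. Both stretches are written on the minus strand, 5′ to 3′, with a GC box (GGGCGG, or CCGCCC on the other strand) in capitals.
Col4a1 and Col4a2 starts: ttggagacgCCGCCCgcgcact
Col4a4 to Col4a3: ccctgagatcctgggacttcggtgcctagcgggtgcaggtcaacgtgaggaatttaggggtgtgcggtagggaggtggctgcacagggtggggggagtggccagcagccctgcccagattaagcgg
The first stretch lies in exons of both genes and holds 1 GC box. The second overlaps a non-coding transcript of *Col4a3* and holds no GC box, CCAAT or TATAAA on either strand. In the 250 bases before the start, a GC box stood in 19 of the 32 chains with a window and in 32.9% of 27025 promoters, CCAAT in 12 of 32 and 34.5%, and TATAAA in 4 of 32 and 13.0%. These are matches of letters and not sites of a factor.

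At P2 the fold changes of the alveolar network chains were above those of *Col4a1* and *Col4a2* in both mutants, and 1 of them passed. *Col4a3*, *Col4a4* and *Col4a5* had log2 fold changes of 0.62, 0.39 and 0.31 in the P2 *Vangl2* mutants and of 0.56, 0.50 and 0.41 in the P2 *Ror2* mutants. *Col4a1* and *Col4a2* had 0.04 and 0.11, then 0.03 and 0.09. *Col4a3* was at 13202, 12599 and 10729 normalized counts in the P2 *Vangl2* mutants against 8064, 7773 and 7829 in the controls. The controls were close to each other and all mutants above them, with a log2 fold change of 0.62 ± 0.11 (SE, limma with Benjamini-Hochberg adjustment, adjusted p = 0.0326). The call was lost without any 1 of the controls (log2 fold change 0.64, 0.61 and 0.62) or without mutant 2 (0.59), kept with sex as a term, and over all alternatives its adjusted p ran from 1.18e-05 to 0.171.

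*Col4a4* was at 6983, 6788 and 6151 in those mutants against 5314, 5153 and 4762, and *Col4a5* at 4073, 4063 and 3790.3 against 3149, 3255 and 3209. Neither overlapped between groups, with limma adjusted p of 0.0698 and 0.0815. In the P2 *Ror2* mutants *Col4a5* was at 4139, 3326 and 3588 against 2688, 2713 and 2897 (log2 fold change 0.41, standard error 0.10, limma adjusted p = 0.203). *Col4a4* was at 5832, 3767 and 4582 against 3336, 2987 and 3568. *Col4a3* was at 11869, 7327 and 11309 against 7388, 5806 and 7155, where mutant 2 lay below the highest control. Without that mutant *Col4a3*, *Col4a4* and *Col4a5* passed, with limma adjusted p of 0.0374, 0.0475 and 0.0458 (4.84% of all genes passed in that fit), while over all alternatives their adjusted p reached 0.534, 0.529 and 0.529. *Col4a6* had log2 fold changes of 0.01 and -0.06 in the *Vangl2* mutants and of 0.05 and 0.16 in the *Ror2* mutants.

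At P5 no type IV chain passed, and all mutants lay below all controls for *Col4a1* and *Col4a2* in both mutants and, in the *Ror2* mutants, also for *Col4a4* and *Col4a5*. *Col4a1* was at 75898, 47761 and 35414 in the *Vangl2* mutants against 94325, 87534 and 75947 (log2 fold change -0.76, standard error 0.36, limma adjusted p = 0.302). *Col4a2* was at 41423, 31965 and 23440.3 against 51147, 53286 and 44440.3 (log2 fold change -0.65, standard error 0.29, limma adjusted p = 0.267). Mutant 1 was the closest to the controls. In the P5 *Ror2* mutants *Col4a1* was at 48445, 60821 and 66764 against 82082 and 80789.9 in 2 controls, and *Col4a2* at 25971, 30957 and 33625 against 40345 and 39457. Their log2 fold changes were -0.49 and -0.41, with limma adjusted p of 0.232 and 0.214. *Col4a3*, *Col4a4* and *Col4a5* had log2 fold changes of 0.32, 0.11 and -0.03 in the P5 *Vangl2* mutants and of -0.13, -0.19 and -0.18 in the P5 *Ror2* mutants. *Col4a4* was at 3406, 3237 and 3069 in the P5 *Ror2* mutants against 3537, 3503 and 4023, and *Col4a5* at 2599, 2742 and 2835 against 2871 and 3334 in 2 controls, with limma adjusted p of 0.261 and 0.327.

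Within a lung, *Col4a3*, *Col4a4* and *Col4a5* together made up 13.9%, 17.0% and 17.6% of the type IV counts in the P2 *Vangl2* mutants against 12.8%, 12.8% and 12.02% in controls. The share was 11.6%, 20.2% and 18.4% against 8.34%, 10.3% and 9.84% at P5, and 17.1%, 13.8% and 15.9% against 10.8%, 11.96% and 12.7% in the P2 *Ror2* mutants. These 3 comparisons did not overlap (two-sided p = 0.1 by an exact permutation test, which is the lowest value possible with 3 lungs a group, and 0.225 after Benjamini-Hochberg adjustment over the 36 shares and ratios tested). In the P5 *Ror2* table the share was 15.3%, 12.05% and 10.7% against 9.79% and 11.3%, which overlap. This share was chosen after the values of the chains had been seen. The ratio of *Col4a3* to *Col4a4*, genes that start back to back, was 1.83 ± 0.0766 (SD, n = 3) in mutants and 1.56 ± 0.0757 in controls of the P2 *Vangl2* table and 1.74 ± 0.123 against 1.502 ± 0.118 at P5, without overlap at either age and with the same exact p. In the *Ror2* tables this ratio overlapped at both ages, at 2.04, 1.95 and 2.47 against 2.21, 1.94 and 2.01 at P2 and 2.22, 2.05 and 2.01 against 2.06, 1.98 and 1.98 at P5. The ratio of *Col4a1* to *Col4a2* averaged 1.76 in mutants and 1.84 in controls of the P2 *Vangl2* table and 1.61 and 1.73 at P5, with overlap. It also overlapped in the P2 *Ror2* table, and in the P5 one it was 1.87, 1.96 and 1.99 against 2.03 and 2.05 in 2 controls, all below them (exact permutation p = 0.2).

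*Col15a1* and *Col18a1* encode collagens XV and XVIII, which sit at the outer face of basement membranes. Both had fold changes below 0 in all 4 comparisons. *Col15a1* was at 1429, 1262 and 1399 in the P2 *Vangl2* mutants against 1883, 1823 and 1740.3 (log2 fold change -0.41, standard error 0.09, limma adjusted p = 0.0541). At P5 it was at 1919, 1280.4 and 1225 against 2279.9, 2213 and 2410.5 (log2 fold change -0.67, limma adjusted p = 0.124). The groups were apart at both ages, while in the *Ror2* tables they overlapped, with log2 fold changes of -0.09 and -0.35. *Col18a1* had log2 fold changes of -0.27 and -0.33 in the *Vangl2* mutants and of -0.27 and -0.18 in the *Ror2* mutants.

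Type VI collagen forms beaded filaments near cells, and its chains had fold changes of either sign. *Col6a3* was at 9678, 9573 and 9485 in the P2 *Vangl2* mutants against 15545, 16339 and 13174 in the controls. The mutants were close to each other and all below the controls, with a log2 fold change of -0.64 ± 0.11 (SE, limma with Benjamini-Hochberg adjustment, adjusted p = 0.0326). The call was lost without any 1 of the controls (log2 fold change -0.62, -0.58 and -0.73) or without mutant 2 (-0.64), and over all alternatives the adjusted p ran from 6.69e-06 to 0.171. *Col6a1* and *Col6a2*, whose products join that of *Col6a3* in 1 molecule, had 0.15 and 0.04 in the same lungs, with *Col6a1* at 20658, 15989 and 16852 against 17269, 16182 and 14511. In the P5 *Vangl2* mutants the log2 fold changes of *Col6a1*, *Col6a2* and *Col6a3* were -0.31, -0.50 and -0.79. They were 0.17, -0.04 and -0.47 in the P2 *Ror2* mutants and 0.01, -0.15 and -0.34 at P5. In the last table *Col6a3* was at 7740.3, 11564 and 13978 against 13666, 13282 and 13937, and without mutant 1 its log2 fold change was -0.10.

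*Col6a4*, *Col6a5* and *Col6a6*, further type VI chains, lay at 21.2 to 168 normalized counts over all lungs. *Col6a4* was at 38.2, 27.5 and 25.5 in the P2 *Vangl2* mutants against 54.8, 47.4 and 87.2 (log2 fold change -1.0, limma adjusted p = 0.125), and *Col6a5* at 125, 98.3 and 81.5 against 47.4, 57.9 and 51.7 (log2 fold change 0.93, limma adjusted p = 0.0774). These chains were apart in opposite directions. *Col6a6* was at 27.0, 86.3 and 22.1 in the P2 *Ror2* mutants against 118, 168 and 141 (log2 fold change -1.88, standard error 0.49, limma adjusted p = 0.203). *Col6a5* was at 49.7, 66.8 and 77.3 in the P5 *Ror2* mutants against 38.2 and 25.8 in 2 controls (log2 fold change 1.00, limma adjusted p = 0.182).

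The fibril-associated chains attach to the surface of fibrils or near them. *Col16a1* was at 2227, 2268 and 2618 in the P2 *Vangl2* mutants against 3165, 3338 and 3290.0, without overlap (log2 fold change -0.46, standard error 0.10, limma with Benjamini-Hochberg adjustment, adjusted p = 0.0427, from 0.00146 to 0.212 over all alternatives). Of the lungs, mutant 3 alone could be left out with the call kept, and without the others the log2 fold change was -0.49, -0.45 and -0.46 (controls 1 to 3) and -0.42 and -0.43 (mutants 1 and 2). The call was also lost with sex as a term or the replicate number as a block (limma adjusted p = 0.0631 and 0.0528). Elsewhere the log2 fold change of *Col16a1* was -0.59 in the P5 *Vangl2* mutants and -0.20 and -0.27 in the *Ror2* mutants. *Col12a1*, found in tissue under load, was at 2815, 1786 and 1591 in the P5 *Vangl2* mutants against 3508, 2778 and 3305, where mutant 1 lay just above the lowest control (log2 fold change -0.67, limma adjusted p = 0.171). At P5 the *Ror2* mutants had *Col12a1* at 1679, 3720.0 and 4368 against 3990.3 and 3519.7, and its log2 fold change of -0.32 became 0.11 without mutant 1. *Col14a1*, a relative of *Col12a1*, had log2 fold changes of -0.01 and -0.59 in the *Vangl2* mutants and -0.05 and -0.37 in the *Ror2* mutants. *Col22a1*, a chain of tissue junctions at 15.8 to 96.3 normalized counts, had -0.68, -0.75, -0.68 and -0.38 in the same order, with the groups apart in all but the last.

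The transmembrane, anchoring and short chains went either way. *Col25a1*, a membrane collagen that motor innervation needs, was at 589, 895 and 467 in the P5 *Vangl2* mutants against 911, 1677 and 1316 (log2 fold change -1.01, standard error 0.29, limma adjusted p = 0.133). At P5 the *Ror2* mutants had *Col25a1* at 807, 1099.7 and 1101 against 1243, 1435 and 1651 (log2 fold change -0.53, standard error 0.15, limma adjusted p = 0.157). All mutants were below all controls in both. *Col17a1*, a hemidesmosome protein of epithelium, was at 225, 157 and 122 in the P2 *Vangl2* mutants against 93.7, 97.7 and 98.7 (log2 fold change 0.75, limma adjusted p = 0.133), and at 142, 99.6 and 103 against 63.0, 52.9 and 76.6 at P5 (log2 fold change 0.83, limma adjusted p = 0.168). All mutants were above all controls at both ages. In the P2 *Ror2* table the 6 lungs scattered for *Col17a1*, at 73.3, 27.5 and 428 against 5.16, 93.7 and 82.0.

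*Col8a1* and *Col8a2* encode the short chains of type VIII collagen, made by endothelium and smooth muscle. *Col8a1* was at 137, 72.8 and 69.3 in the P2 *Vangl2* mutants against 63.2, 56.0 and 48.8 (log2 fold change 0.66, limma adjusted p = 0.256). In the P5 *Ror2* mutants it was at 109, 82.5 and 22.9 against 38.2, 36.1 and 26.8, where mutant 3 lay below the controls (log2 fold change 0.81, limma adjusted p = 0.438). Without mutant 3, *Col8a1* and *Col20a1* passed there, 2 of 38 chains, where 4.28% of all genes did. In the P2 *Ror2* table *Col8a2* was at 216, 157 and 184 against 139, 137 and 139.7 and *Col13a1*, a transmembrane chain, at 3252, 3125 and 4427 against 2964, 2604 and 3098, both without overlap. *Col28a1*, a chain best known from peripheral nerve, was at 42.3, 26.1 and 37.2 in the P5 *Ror2* mutants against 66.3 and 60.5 (log2 fold change -0.86, limma adjusted p = 0.209). *Col20a1* lay at 34.1 to 228 and *Col10a1* at 3.17 to 23.4 normalized counts over all lungs. The log2 fold changes of *Col7a1* (the anchoring fibril chain), *Col23a1* and *Col26a1* lay between -0.57 and 0.21 in the 4 comparisons. *Col19a1* was at 0 to 13.4 normalized counts.

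Within the P5 *Vangl2* table same-numbered lungs departed together from their group means (r = 0.384, 0.34 and 0.241). The labels give no pairing, so a block on this number was picked from these same data and is an alternative only. That fit called 5 chains in limma, all lower (beside 3.48% of genes lower and 5.47% higher). They were *Col25a1* (adjusted p = 0.0219), *Col12a1* (0.0388), *Col24a1* (0.0396), *Col15a1* (0.0397) and *Col6a3* (0.0484). Over their alternatives in limma the adjusted p reached 0.359, 0.368, 0.322, 0.312 and 0.428. *Col1a1* stood at 0.0505 with the block.

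Summed over classes, the fibrillar chains took 0.470%, 0.467% and 0.515% of normalized counts in the P2 *Vangl2* mutants against 0.673%, 0.772% and 0.710% in controls. At P5 they took 0.690%, 0.624% and 0.423% against 0.918%, 0.806% and 1.03%. In the *Ror2* mutants the share was 0.535%, 0.633% and 0.359% against 0.685%, 0.785% and 0.667% at P2 and 0.621%, 0.675% and 0.779% against 0.816% and 0.858% at P5. In each comparison every mutant was below every control (two-sided p by an exact permutation test of 0.1 in the first 3, the lowest possible, and 0.2 in the P5 *Ror2* table with 2 controls). The basement membrane chains overlapped at P2, at 0.834%, 0.700% and 0.580% against 0.668%, 0.671% and 0.687% in the *Vangl2* table and 0.701%, 0.589% and 0.636% against 0.695%, 0.555% and 0.604% in the *Ror2* table. At P5 their share was lower in all mutants, at 0.729%, 0.577% and 0.457% against 0.843%, 0.843% and 0.759% and at 0.502%, 0.585% and 0.621% against 0.724% and 0.733% (exact permutation p = 0.1 each). The other chains overlapped in all 4 comparisons. Within the fibrillar class, *Col1a1*, *Col1a2* and *Col3a1* held 79.7%, 79.2% and 80.3% of the counts in the P2 *Vangl2* mutants against 83.5%, 83.4% and 82.4%, a share also chosen after the values were seen. Adjusted over the 36 shares and ratios, no p was under 0.225.

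**Figure D4:**
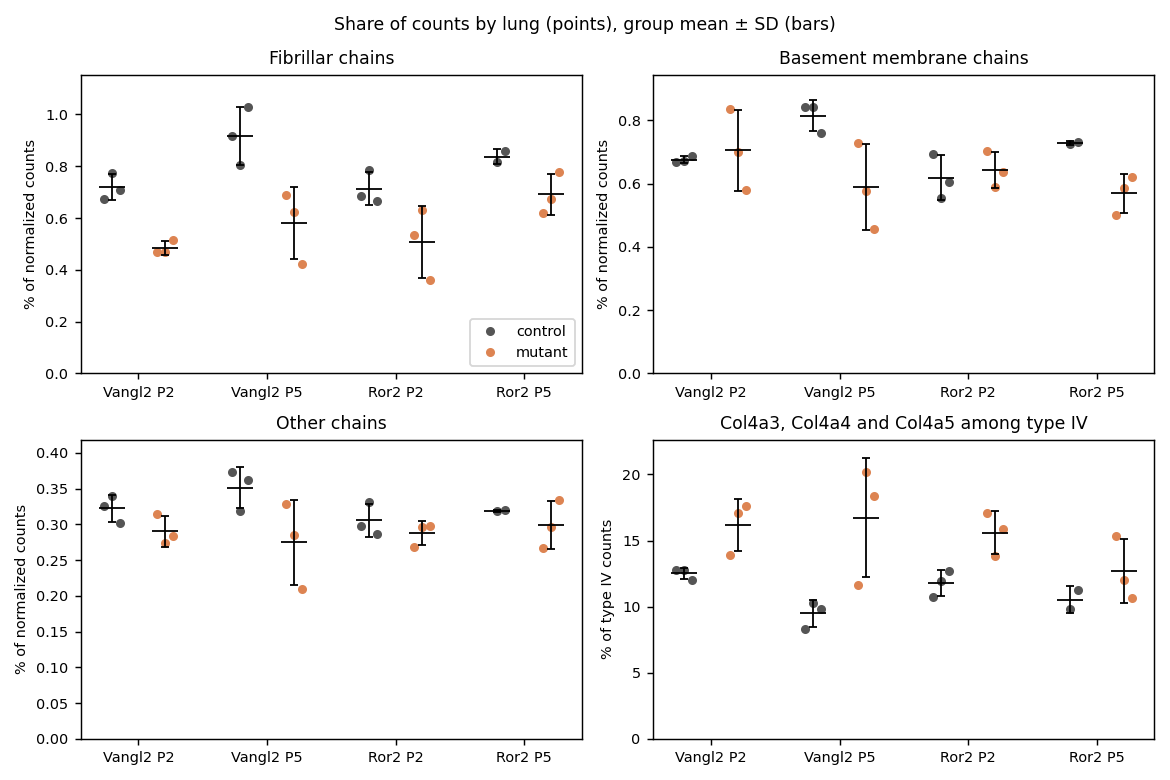
Share of all normalized counts taken by the fibrillar, basement membrane and other chains in each lung, and share of the type IV counts on *Col4a3*, *Col4a4* and *Col4a5*, as points (controls grey, mutants orange) with the group mean and SD (2 controls in the P5 *Ror2* table). Fibrillar shares of the mutants lie below those of the controls in every comparison, and basement membrane shares do so at P5.

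Summed levels of cell type markers moved with several of these groups, and their part in the results was not tested. The sum of 7 matrix fibroblast markers was below that of every control in every mutant lung, at 50472 to 64782 against 77441 to 85400.0 normalized counts at P2 and 59949 to 86792 against 113538 to 120947 at P5 in the *Vangl2* tables. It was at 62323 to 83252 against 92491 to 95239 and 77469.9 to 127503 against 134717 to 142251 in the *Ror2* tables, the last over 2 controls as for most sums of that table. Of the 7 genes, 1 was called lower in the P2 *Vangl2* mutants and 0 in the other comparisons, and the fold change was below 0 for 3, 4, 5 and 5 of them. The sum of 7 alveolar type I markers was higher at P2, at 85579 to 107302 against 63252 to 78079 in the *Vangl2* table and 67867 to 104448 against 57062 to 67016 in the *Ror2* table, and at P5 it was 56672 to 84718 against 55864 to 60397, which overlap, and 63215 to 74381 against 61738 to 61869. Of the 7, 1 was called higher in the P2 *Vangl2* mutants and 0 elsewhere. The sum of 7 endothelial markers was at 41814 to 66955 against 72868 to 79322 in the P5 *Vangl2* table and 70979 to 76220.0 against 77994 to 84591 in the P5 *Ror2* table, and overlapped at P2. The 7 proliferation markers were all called lower in the P2 *Vangl2* mutants, with sums of 3347 to 6874 against 12171 to 20410.5, and 0 in the other comparisons, with sums of 4176 to 10521 against 11806 to 13174 in the P5 *Ror2* table and overlap in the rest. All 7 had fold changes below 0 in every comparison. Their median log2 fold changes were -1.83 and -0.60 in the *Vangl2* mutants at P2 and P5 and -1.78 and -0.91 in the *Ror2* mutants. In that order, all mutants lay below all controls for 7, 1, 5 and 5 of them (beside 14.9%, 12.5%, 12.2% and 14.4% of all genes). The sum of 7 myofibroblast and smooth muscle markers was at 20487 to 31779 against 32036 to 38769.8 in the P2 *Vangl2* table, where 1 was called lower, and overlapped in the others. That of 6 macrophage markers was at 4912 to 11188 against 3793 to 4155 and 5589 to 6044 against 3186 to 3920.2 in the *Vangl2* tables, with 1 called higher at P5. That of 5 mesothelial markers was at 5563 to 7291 against 2728 to 4835 in the P5 *Vangl2* table and that of 4 erythroid markers was at 1104 to 1490.2 against 2567 to 5046 in the P2 *Vangl2* table, where 1 was called lower and 2 were at 0 in every lung. These sums overlapped in the other tables. Those of alveolar type II markers, 2 of which were called higher in the P2 *Vangl2* mutants, and of cartilage markers overlapped in all 4.

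Chains are modified, folded, exported, trimmed and crosslinked by other proteins and bound by receptors. Of 45 such genes in the tables, 44 were tested in each comparison, and 2 were called in the P2 *Vangl2* mutants, both lower (4.55%, beside 2.09% of all genes called lower). *Crtap*, part of the complex that modifies prolines of the helix, was at 1157, 1145 and 1283 against 1575, 1764 and 1908 (log2 fold change -0.55, limma with Benjamini-Hochberg adjustment, adjusted p = 0.0387). *Ddr2*, a receptor kinase for fibrillar collagen, was at 2013, 2247 and 2137 against 2673, 3217 and 3030.4 (log2 fold change -0.48, limma adjusted p = 0.0476). Both calls were lost without any 1 of the controls and without mutant 1 or mutant 2, with log2 fold changes of -0.62 to -0.48 and -0.55 to -0.42 over the lungs left out. With sex as a term both were lost (limma adjusted p = 0.0619 and 0.0739), *Ddr2* was also lost with no filter on low values (0.0503), and over all alternatives the adjusted p reached 0.190 and 0.228.

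In limma 0 of the 44 passed in the other comparisons, with 17, 12 and 10 under an unadjusted p of 0.05 in the P5 *Vangl2*, P2 *Ror2* and P5 *Ror2* mutants (38.6%, 27.3% and 22.7%, beside 18.8%, 19.3% and 18.5% of all genes). With the replicate block 9 passed in the P5 *Vangl2* table, all lower (beside 3.48% of genes lower and 5.47% higher). Fold changes were below 0 for 31 and 41 of the 44 in the *Vangl2* mutants at P2 and P5 and for 33 and 38 in the *Ror2* mutants (70.5%, 93.2%, 75.0% and 86.4%, beside 49.9%, 49.7%, 50.6% and 49.4% of all genes), with medians of -0.17, -0.47, -0.17 and -0.18 on the log2 scale. By step, the medians in the P5 *Vangl2* mutants were -0.30 for 15 hydroxylation genes, -0.57 for 6 chaperone and export genes, -0.40 for 7 propeptide cleavage genes, -0.57 for 6 crosslinking genes and -0.49 for 10 receptors.

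The mutants were set side by side at each age, each with controls of its own. Across the 38 chains tested in both, Pearson's r of the log2 fold changes was 0.62 at P2 and 0.68 at P5, beside 0.49 and 0.55 across all genes tested in both, as a description across genes that share their lungs. Of the 38, 33 at P2 and 29 at P5 had the same sign in both mutants (86.8% and 76.3%, beside 70.7% and 71.9% of all genes). By a test of the difference itself 0 of 38 chains passed at either age (limma, lowest adjusted p 0.946 at P2 and 0.944 at P5, where 0.0% and 0.0118% of all genes passed). Under an unadjusted p of 0.05 in limma were *Col7a1* at P2, with a *Vangl2* minus *Ror2* difference of -0.69, and at P5 *Col23a1* and *Col27a1*, with -0.41 and -0.59 (beside 4.6% and 4.73% of all genes). For *Col1a1* the difference was -0.03 (standard error 0.28) at P2 and -0.54 (standard error 0.35) at P5, and for *Col4a3* 0.06 (standard error 0.24) and 0.45 (standard error 0.24).

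**Figure D5:**
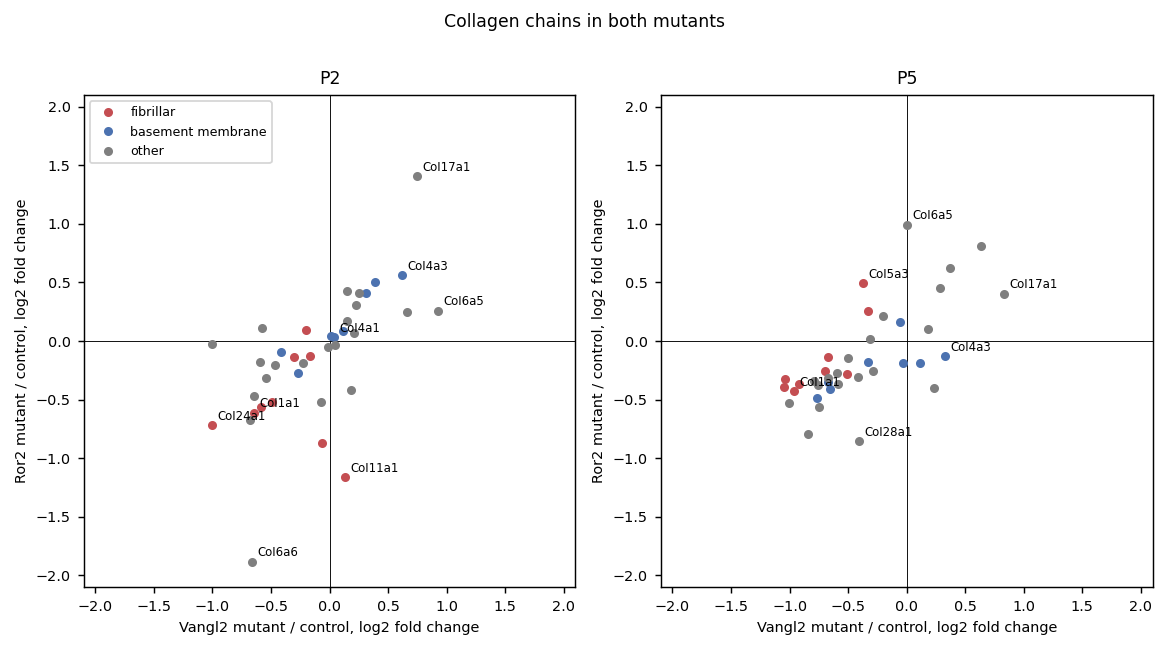
Log2 fold change of each collagen chain in the *Vangl2* mutants (horizontal axis) against that in the *Ror2* mutants (vertical axis) at P2 and P5, coloured by class, with some chains named. Most points lie in the quadrants where both mutants have the same sign, 33 of 38 at P2 and 29 of 38 at P5.

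By a test of the difference between the ages 0 of 38 chains passed in either mutant (limma, lowest adjusted p 0.577 for *Vangl2* and 0.451 for *Ror2*, where 0.0% of all genes passed in each). Under an unadjusted p of 0.05 in limma there were 2 of 38 chains in the *Vangl2* mutants and 5 of 38 in the *Ror2* mutants (5.26% and 13.2%, beside 8.45% and 9.5% of all genes). In the *Ror2* mutants these were *Col4a2*, *Col4a3*, *Col4a4*, *Col4a5* and *Col5a3*. *Col4a5* had a log2 fold change of -0.18 at P5 and 0.41 at P2 in the *Ror2* mutants, a difference of -0.59 (standard error 0.14, limma unadjusted p = 0.00123). *Col4a4* differed by -0.69 (standard error 0.19), *Col4a3* by -0.69 (standard error 0.23) and *Col4a2* by -0.50 (standard error 0.20), while *Col5a3*, a chain of low count, differed by 1.37 (standard error 0.55). In the *Vangl2* mutants *Col4a2* differed by -0.77 (standard error 0.34) and *Col6a4*, also of low count, by 1.24 (standard error 0.48). These tables were scaled separately, so only the mutant over control changes were compared between them.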

How the data were processed

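Left lung lobes of 24 mice were profiled by bulk RNA-seq, 3 per group. Per the labels and methods, reads were aligned to mm10, and the deposited values are counts divided by DESeq2 size factors, a normalized signal per gene, in 1 table for each mutant and age. The tables also hold the authors' log2 fold changes with their errors, the Wald statistic, a score, and p-values, none of which was used. Versions of the authors' aligner and of DESeq2 are not given in the sources used here.

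Chains were compared with limma 3.58.1 (R 4.3.3; lmFit, and eBayes with trend) on log2(normalized count + 1), for genes with at least 1 normalized count in at least 3 of 6 lungs, adjusting p across every tested gene by Benjamini-Hochberg and a threshold of 0.05. A fold change on this scale understates the change of low genes. Differences between mutants or ages were contrasts in 1 fit over 12 lungs, and shares were compared by an exact two-sided permutation test. The collagen chains and all lists were chosen with earlier results of these data known. Named chains were a fixed set of fibrillar, type IV, XV, XVIII, VI, XII and XIV chains, every chain called, and up to 6 further chains a comparison with the largest fold change among those whose groups did not overlap and whose mean was at least 10, and other values account for the rest of the 39. In control 1 of the P5 *Ror2* table, 8284 genes were set to missing, 8085 on the chromosomes without reads and 199 on Y or with no chromosome matched. Whole reads came back from the normalized counts in 21 lungs (100% of values within 0.02 of a whole number), and edgeR 4.0.16 and DESeq2 1.42.0 were run on those of the P2 tables as alternatives, beside other pseudocounts (0.5 and 8), filters, scalings, a sex term, a replicate block and each lung left out. In the P5 *Vangl2* table same-numbered lungs departed together from their group means (r = 0.384, 0.34 and 0.241). The block fit is therefore quoted for that table, although the labels do not say that lungs were paired. On simulated data the limma step recovered 97 to 100 of 100 genes changed by a log2 fold of 1 in the 4 tables, over 17177 to 17541 genes. The simulation gave every gene and both groups 1 spread setting, taken from the controls, and changed only well expressed genes. It therefore does not tell what share of real changes the test can find in these lungs.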

Additional observations from a re-analysis of the deposited data

How the results depend on the processing

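Leaving out each lung in turn, chains called in the *Vangl2* mutants at P2 ranged from 0 (without any 1 of the controls or mutant 2) to 12 (without mutant 3). Of all genes, 0.659%, 0.00573% and 0.00573% passed there without controls 1 to 3, 0.166% without mutant 2 and 13.2% without mutant 3. In the *Ror2* mutants chains called ranged from 0 to 4 at P2 and 0 to 2 at P5. The 4 came without mutant 2, where 4.84% of all genes passed, and the 2 without mutant 3, where 4.28% did. At P5 in the *Vangl2* mutants the count was 0 each time, beside 0.0% to 0.304% of all genes. Maturation and receptor genes called ranged from 0 to 10 in the P2 *Vangl2* mutants, 0 to 2 in the P2 *Ror2* mutants and 0 to 3 in the P5 *Ror2* mutants. Their highest counts came in the same fits as for the chains (13.2%, 4.84% and 4.28% of all genes). At P2 DESeq2 called 14 chains in the *Vangl2* mutants and 2 in the *Ror2* mutants (11.5% and 4.58% of all genes), and 11 maturation and receptor genes in the *Vangl2* mutants. Sex as a term left 2 chains there, *Col4a3* and *Col6a3* (3.42% of all genes). No filter on low values left 1 maturation gene, and equal totals gave 5 (3.05% and 3.85% of all genes). In the replicate block fits of the P5 *Vangl2* table, 5 chains and 9 maturation and receptor genes were called (8.95% of all genes). In the other tables same-numbered lungs were less alike (correlations of -0.095 to 0.206). There the block gave 4 chains and 4 maturation genes in the P2 *Vangl2* mutants (4.56% of all genes) and 0 chains in the *Ror2* mutants. Of the P2 *Vangl2* chains, *Col4a3* and *Col6a3* were kept, *Col1a1* and *Col16a1* lost, and *Col24a1* and *Col25a1* gained. The 4 counts of chains whose effects differed between mutants or ages were 0 under every alternative run. In the P5 *Vangl2* mutants the difference in the share of type IV counts on *Col4a3*, *Col4a4* and *Col4a5* was 7.24 points. It was 5.51 points without mutant 2 and 9.79 points without mutant 1. The basement membrane share difference of 0.0292 points in the P2 *Vangl2* mutants was -0.0355 without mutant 1, that of 0.0242 in the P2 *Ror2* mutants was -0.0073 without control 2, and differences of the *Col1a1* to *Col1a2* ratio (P2 and P5 *Vangl2*, P2 *Ror2*) and of the *Col4a3* to *Col4a4* ratio (P2 *Ror2*) also turned sign.

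Some fold changes turned sign, among them several near 0 and that of *Col12a1* in the P5 *Ror2* mutants (log2 fold change -0.32). With equal totals, *Col4a1*, *Col4a6* and *Col6a2* were at -0.026, -0.055 and -0.024 in the P2 *Vangl2* mutants, *Col4a5* and *Col4a6* at 0.063 and 0.037 in the P5 *Vangl2* mutants, and *Col4a1* at -0.011 in the P2 *Ror2* mutants. In the P2 *Vangl2* mutants *Col4a6* was at -0.0015 with TMM and -0.00043 in edgeR, and *Col14a1* at 0.014 with sex as a term and 0.0090 in DESeq2. With control 1 of the P5 *Ror2* table as deposited, chains on its missing chromosomes took its zeros as values, and *Col1a2*, *Col4a1*, *Col4a2*, *Col4a5*, *Col12a1* and *Col28a1* stood at 4.75, 4.95, 4.68, 3.68, 3.64 and 1.15. *Col12a1* was at 0.11 there with the replicate block. Over the lungs left out, fold changes in the P2 *Vangl2* mutants ran from -0.11 to 0.32 for *Col11a1*, -0.13 to 0.19 for *Col4a1*, -0.066 to 0.25 for *Col4a2*, -0.019 to 0.060 for *Col4a6*, -0.11 to 0.19 for *Col6a2* and -0.20 to 0.13 for *Col14a1*. In the P5 *Vangl2* mutants they ran from -0.035 to 0.26 for *Col4a4*, -0.18 to 0.13 for *Col4a5* and -0.31 to 0.13 for *Col4a6*. In the P2 *Ror2* mutants they ran from -0.067 to 0.15 for *Col4a1*, -0.081 to 0.21 for *Col4a6*, -0.33 to 0.13 for *Col15a1*, -0.094 to 0.034 for *Col6a2* and -0.14 to 0.030 for *Col14a1*. In the P5 *Ror2* mutants they ran from -0.24 to 0.022 for *Col5a1*, -0.057 to 0.057 for *Col6a1* and -0.58 to 0.11 for *Col12a1*. The cause of these shifts was not tested, apart from the zeros. No scaling moved the median of all genes past 0.0965 on the log2 scale.

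With 3 lungs per group the exact permutation test cannot pass, and chains of low count vary with counting error. Count tests were not run on the P5 tables, whose reads could not be recovered in every lung, and sex as a term was not run for the P5 *Ror2* table. The shares of that table already leave out its control 1.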

Other observations

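The cartilage chains left out of the collagen list were low in these lobes, and 0 of the 5 were called in limma in any comparison. *Col2a1*, the main chain of cartilage fibrils, was at 188, 209 and 194 normalized counts in the P5 *Ror2* mutants against 109, 85.3 and 72.4 in the controls, all above them (log2 fold change 1.16, standard error 0.18, limma with Benjamini-Hochberg adjustment, adjusted p = 0.0739). It was the only 1 of the 5 with all P5 *Ror2* mutants above the controls (beside 15.6% of all genes), and 2 of the 5 had fold changes below 0 there. In the P2 *Ror2* mutants *Col2a1* was at 34.9, 94.8 and 3.15 against 63.9, 55.1 and 75.5, with overlap. In the P5 *Vangl2* mutants *Col9a3*, a chain on the surface of cartilage fibrils, was at 20.2, 12.3 and 16.1 against 2.74, 4.70 and 9.07 (limma adjusted p = 0.172). These chains were named after their values were seen.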
